A study of Mus musculus with 32 samples.

Results

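The extracellular matrix genes of fibroblasts were followed through ER stress in MEFs, the fibroblasts cultured from mouse embryos. The set holds 55 genes, listed by symbol: 19 collagens, and matrix glycoproteins, laminins, matricellular proteins, proteoglycans, crosslinking enzymes, matrix proteases and protease inhibitors. All 55 were present among the 20234 genes of the deposited count table. Thapsigargin, which empties the calcium store of the endoplasmic reticulum (ER) by blocking its calcium pump, was applied for 0 h (control), 1 h or 16 h, and the fourth group received it for 16 h with an inhibitor of the ER stress kinase PERK (PERKi) in the last 4 h. Each group had 4 samples, and each sample was sequenced as total cytosolic RNA and as polysome RNA, that is, mRNAs sedimenting with more than 4 ribosomes. The MEFs carry no genotype or passage in the labels, and the doses of thapsigargin and PERKi, the name of PERKi and any solvent control are also unstated there.

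Fibroblasts build the matrix of connective tissue. Procollagen chains are translated into the ER, where prolines are hydroxylated and chains are folded into triple helices, before secretion, trimming and crosslinking by lysyl oxidases outside the cell. Fibronectin, fibrillins and fibulins form fibres beside the collagens, laminins and nidogens form basement membranes, matricellular proteins such as thrombospondin-1 and tenascin-C modulate adhesion, and metalloproteinases and their tissue inhibitors (TIMPs) set the turnover. These proteins are cargo of the secretory pathway, and many are very large. PERK phosphorylates the initiation factor eIF2 under ER stress, which lowers general translation initiation.

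Library depth was 19.32 to 41.78 M counts, the 1 h groups having the widest range. Fibroblast markers outside the matrix were all present: 10 of 10 were at or above 1 CPM (counts scaled to library size, so that levels compare between libraries), with a summed level of 2918 to 3189 CPM in control cytosolic libraries and 1575 to 1750 CPM at 16 h. All 8 epithelial markers were under 1 CPM in the mean of every group, as were Pecam1, Kdr and Tie1 (endothelial), Ptprc, Adgre1 and Tyrobp (blood and macrophage), Myh11, Des and Myocd (smooth muscle), Adipoq (adipocyte), Matn1 and Comp (chondrocyte) and Sox10 and Gfap (neural). Of 8 endothelial markers only Erg and, in polysome RNA, Cdh5 exceeded 1 CPM in any group. Markers on the macrophage, neural, smooth muscle and chondrocyte lists were in part present. The macrophage and blood list, with 7 of 8 genes in the table, summed to 11.2 to 14.4 CPM in control cytosolic libraries and 7.88 to 10.1 CPM at 16 h, most of it Cd14. The neural list, mainly Nes and Map2, summed to 135.7 to 143.4 CPM in control and 53.9 to 59.6 CPM at 16 h. The smooth muscle list, mainly Acta2, Tagln and Smtn, summed to 981 to 1097 CPM in control and 209 to 233 CPM at 16 h, and the chondrocyte list, mainly Sox9 and Acan, to 79.6 to 85.2 and 11.1 to 12.7 CPM.

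The 55 members had a median coding length of 4101 nt, from 603 nt (Dpt) to 13149 nt (Hspg2), against 1416 nt for 12407 genes tested for the polysome ratio, and 15 members were under 2000 nt. Glycine codons (GGN) made up a median of 24.3% of codons in the 19 collagens, 8.39% in the other 36 members and 6.27% in all tested genes, and proline codons (CCN) 16.1%, 6.07% and 5.52%. In 7 collagens (Col1a1, Col1a2, Col3a1, Col5a1, Col5a2, Col5a3 and Col11a1) GGN recurred at every repeat of a 3-codon unit, unbroken, for 337 to 344 units. The difference is visible in 60 codons each of a fibrillar collagen, a fibre glycoprotein and a short matricellular mRNA, which stand for the long and short members compared below. They were read from GENCODE vM21 transcripts on GRCm38 (mm10), codons 168 to 227 of Col1a1, 1239 to 1298 of Fn1 and 167 to 226 of Sparc, 5′ to 3′, with GGN codons in capitals.
Col1a1: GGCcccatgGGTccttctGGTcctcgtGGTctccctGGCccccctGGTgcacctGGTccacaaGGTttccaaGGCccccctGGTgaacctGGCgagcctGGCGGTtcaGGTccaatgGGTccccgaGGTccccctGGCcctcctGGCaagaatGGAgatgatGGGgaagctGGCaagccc
Fn1: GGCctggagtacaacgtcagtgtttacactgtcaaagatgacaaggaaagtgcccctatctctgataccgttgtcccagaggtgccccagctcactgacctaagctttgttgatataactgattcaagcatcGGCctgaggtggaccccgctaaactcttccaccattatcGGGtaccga
Sparc: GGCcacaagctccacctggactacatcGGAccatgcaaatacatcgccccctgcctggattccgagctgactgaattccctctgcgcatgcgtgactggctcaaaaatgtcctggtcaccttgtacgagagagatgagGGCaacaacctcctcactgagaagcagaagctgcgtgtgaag
Of the 60 codons, 21 were GGN and 19 CCN in the Col1a1 stretch, against 3 and 4 in Fn1 and 3 and 3 in Sparc. Col1a1 (4359 nt of coding sequence) lies on chromosome 11 from 94936224 to 94953042, Fn1 (7431 nt) on chromosome 1 from 71585520 to 71653200, Sparc (996 nt) on chromosome 11 from 55394500 to 55423183, Thbs1 (3513 nt) on chromosome 2 from 118111876 to 118127133 and Dpt (603 nt) on chromosome 1 from 164796644 to 164824266. All are protein-coding in that annotation, and which exons the deposited counts cover is not given.

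The summed level of the 55 genes rose early and fell late. In cytosolic RNA it was 32310 ± 770 CPM in control (SD, n = 4), 43170 ± 1780 at 1 h, 10190 ± 235 at 16 h and 11340 ± 152 with PERKi. In polysome RNA the same sum was 48910 ± 688, 91520 ± 3930, 21830 ± 880 and 16680 ± 328 CPM. With PERKi the sum was 1.11-fold higher in cytosolic RNA and 1.31-fold lower in polysome RNA than without it, while the step from 1 h to 16 h was a fall of 4.24-fold in cytosolic and 4.19-fold in polysome RNA. In each of these comparisons the 4 libraries of one condition lay apart from the 4 of the other. The sum is weighted towards the most abundant members, which went both ways at 1 h. In cytosolic RNA at 1 h, mean Fn1 rose from 1887 to 5866 CPM and Thbs1 from 3988 to 7385. Col1a1 rose from 1937 to 4800 CPM and Col1a2 from 3488 to 5676. Lox fell from 5665 to 3718 CPM, Sparc from 3871 to 2790, Timp3 from 1814 to 946 and Timp2 from 1480 to 682. These levels are relative to the other mRNAs of each library, so a shift shared by all mRNAs would not show, and in bulk RNA fewer cells of a type and less RNA per cell cannot be told apart.

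**Figure D1:**
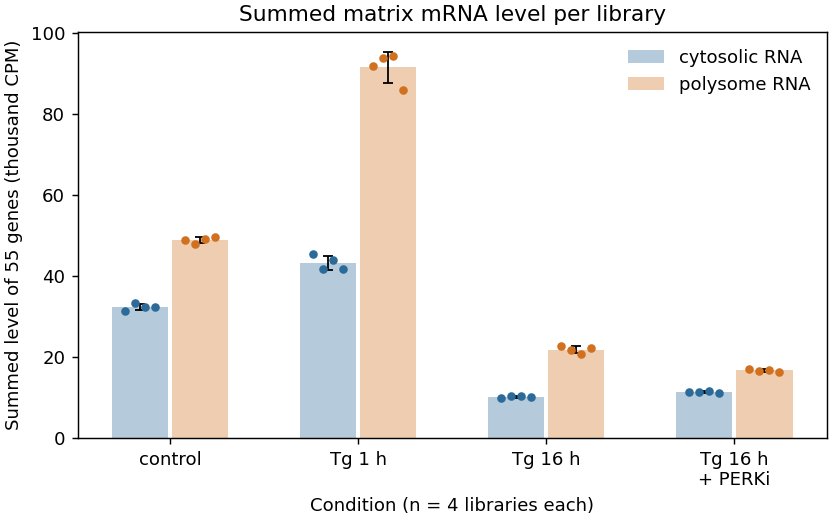
Summed level of the 55 matrix genes in CPM divided by 1000 (y axis, from 0) for control, thapsigargin (Tg) 1 h, 16 h and 16 h with PERKi (x axis), with bars for the mean, points for the 4 libraries and whiskers for the SD. The highest bar is polysome RNA at 1 h, 91520 CPM, and the lowest is cytosolic RNA at 16 h, 10190 CPM.

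Levels differed widely between the members. Per kilobase of exon, the most abundant member in control cytosolic RNA was Lox, which encodes lysyl oxidase, at 1186 CPM per kb, followed by Sparc, which encodes the collagen-binding protein osteonectin, at 1022, Thbs1 at 657 and Timp2 at 380.0. Of the collagens, Col1a1 reached 295 and Col1a2 281 CPM per kb, while Col3a1 stood at 3.57. The length used joins all annotated exons of a gene (6563 bases for Col1a1 and 12426 for Col1a2). It can exceed that of the mRNA present, so the order depends on the annotation. The minimum count was reached by 50 members in cytosolic RNA, 50 in polysome RNA and 51 over both kinds. Col15a1, Eln, Lum and Mmp3 were not tested, Mmp3 (stromelysin-1) being at 0 in 3 of 4 control cytosolic libraries, and Dcn, which encodes decorin, was tested for the ratio only. Dcn had 0.422, 0.166, 0.137 and 0.234 CPM in control cytosolic RNA and 0.121, 0, 0.215 and 0.263 at 16 h, too few counts for a test. Col4a1, Col4a2 and Col5a3 passed the minimum but stayed under 1 CPM in every library. For Vwa1, Timp3, Fbn1 and Loxl3, 25.2%, 21.3%, 20.1% and 11.6% of the exon bases are shared with exons of other genes, so part of their counts may belong to those genes.

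**Figure D2:**
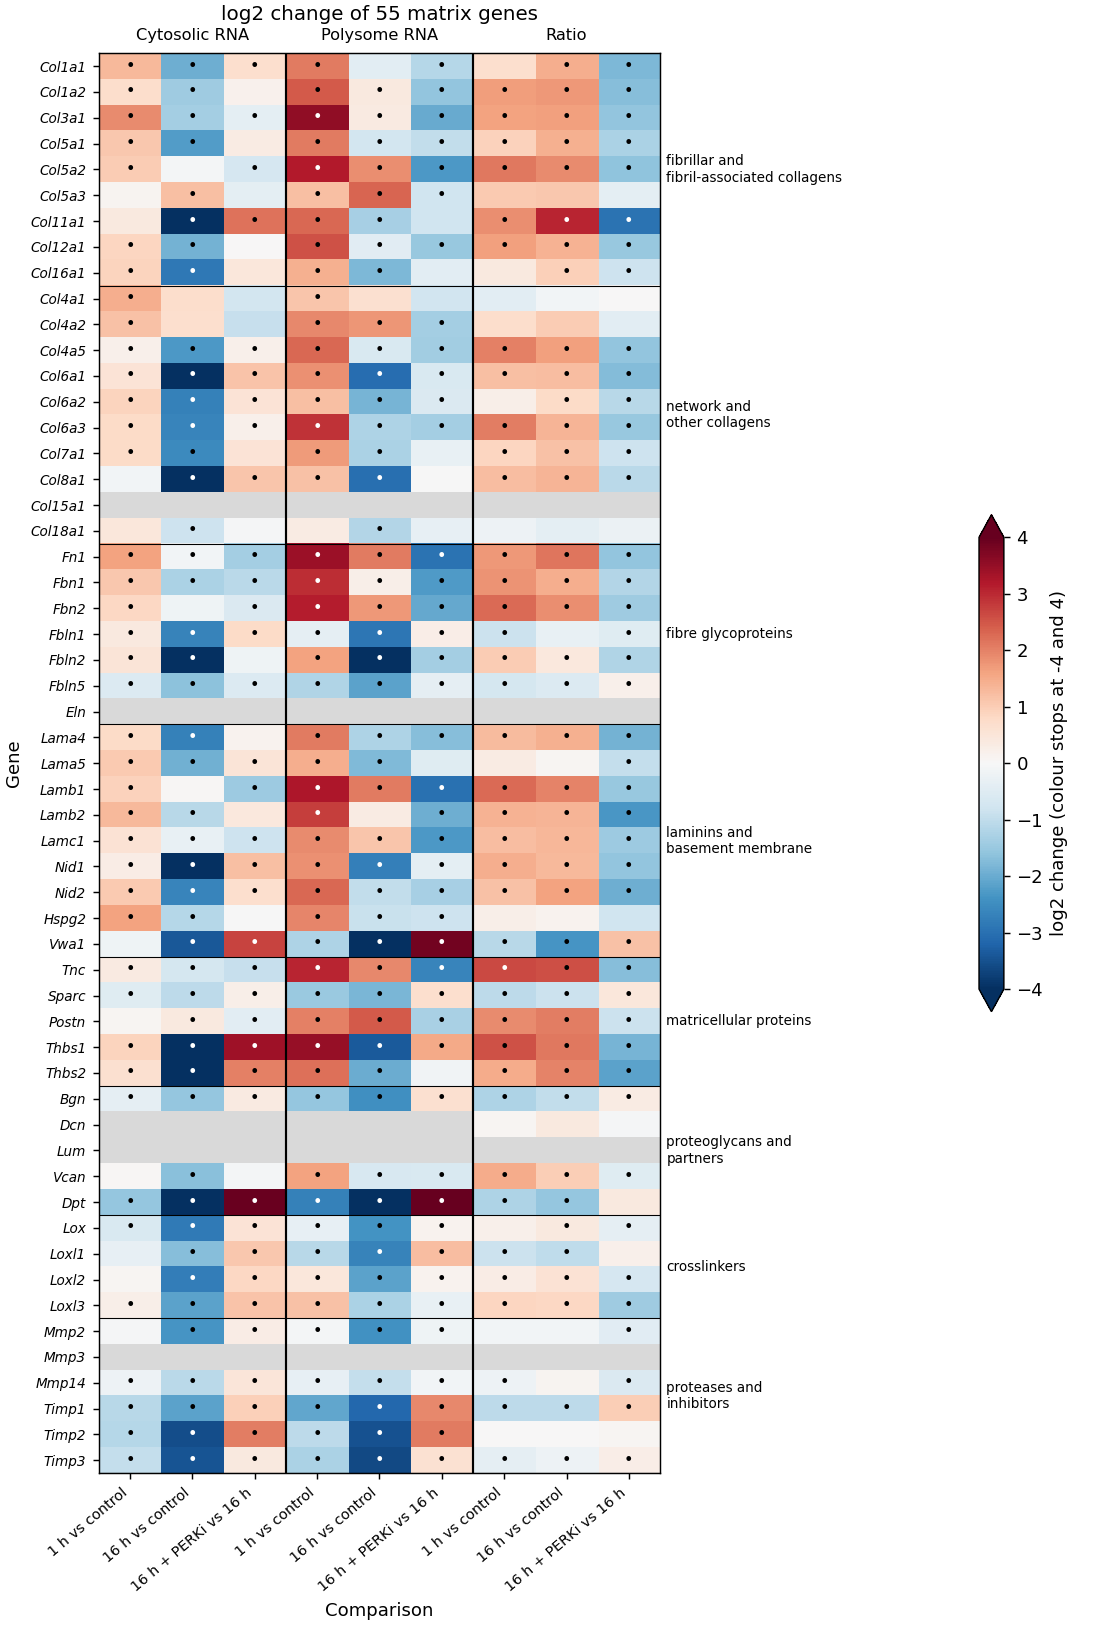
log2 changes of the 55 matrix genes (rows, by role) in 3 comparisons for cytosolic RNA, polysome RNA and the polysome to cytosolic ratio (columns), red for higher and blue for lower, with colours stopping at 4 and -4, dots for adjusted p under 0.05 and grey for genes not tested. Cytosolic RNA at 16 h is mostly blue (43 of 50 tested members lower), and the ratio is mostly red at 16 h (32 of 51 higher) and blue with PERKi (36 of 51 lower).

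The 1 h samples address acute stress. In cytosolic RNA, 31 of 50 tested members rose and 9 fell at an adjusted p under 0.05 (edgeR's quasi-likelihood test), where 28.1% of 12366 tested genes rose and 28.1% fell. The members' median log2 change was 0.53, against 0.00 for all tested genes. Among fibrillar or fibril-associated collagens 7 of 9 rose, among other collagens 7 of 9 and among basement membrane genes 8 of 9, with none falling, while 4 of 5 proteases and inhibitors and 2 of 3 proteoglycans and partners fell with none rising. With offsets corrected for coding length, 23 members rose and 11 fell, where 26.6% of all genes in that fit rose and 27.3% fell.

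Col3a1, a fibrillar collagen of extensible tissue, had 30.8, 40.02, 33.8 and 35.7 CPM in the 4 control libraries and 144, 132, 127.8 and 117.8 at 1 h, the largest rise among the members at 3.68-fold (log2 change 1.88 ± 0.0844 SE, adjusted p = 1.5e-11). The fibronectin gene Fn1 went from 1848, 1927, 1910 and 1864 to 5806, 5865, 6044 and 5748 CPM, 3.08-fold higher (adjusted p = 1.7e-14). Both genes were well separated between the groups. Hspg2, which encodes the basement membrane proteoglycan perlecan, rose from 97.2, 264, 193 and 180.2 to 693, 475, 586 and 495 CPM, 3.03-fold, with a larger error (0.262 on the log2 scale). Both chains of type I collagen, the main collagen of fibroblasts, rose. Col1a2 had 2937, 4065, 3485 and 3466 CPM in control and 6284, 5096, 5884 and 5439 at 1 h, and rose 1.61-fold. Col1a1 had 1120, 2685, 2026 and 1918 CPM in control and 6061, 3806, 5050 and 4282 at 1 h, 2.45-fold higher (log2 change 1.30 ± 0.259 SE, adjusted p = 0.000568). For Col1a1, all 1 h libraries exceeded all control libraries. Control replicate 1 was the lowest of its group for Col1a1 and also for Hspg2, Lamb2, Col16a1 and Col7a1. It held 38 CPM of Lamb2, 39.1 of Col16a1 and 37.3 of Col7a1, against at least 70.1, 66.8 and 65.3 in the other control libraries. The same library was the highest control for Lox and Timp3.

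Most other collagens and fibre proteins rose too. Col6a1, a chain of the beaded filaments of type VI collagen, went from 419, 592, 530.4 and 523 to 812, 741, 786 and 715 CPM (1.47-fold higher). Col5a1, a chain of the type V collagen that nucleates fibrils, went from 484, 787, 640.5 and 616 to 1613, 1172, 1367 and 1220 CPM (2.11-fold higher). Fbn1, which encodes the microfibril protein fibrillin-1, rose 2.12-fold, from 74.1, 64.8, 67.6 and 62.4 to 140.3, 151, 139.1 and 143.3 CPM. The basement membrane collagen gene Col4a1 rose 2.74-fold, but only from 0.211, 0.304, 0.246 and 0.156 to 0.812, 0.524, 0.629 and 0.575 CPM. Lamb1, the laminin beta-1 chain, went from 28.8, 29.3, 29.5 and 29.1 to 57.5, 54.3, 55.1 and 55.4 CPM, a rise of 1.89-fold with little spread. Among matricellular genes, Thbs1 (thrombospondin-1, which binds cells, fibrin and latent TGF-beta) rose 1.83-fold, from 4079, 3905, 3963 and 4005 to 7281, 7458, 7440 and 7360 CPM. Tnc, the tenascin-C gene, rose 1.28-fold, from 65.3, 63.4, 62.1 and 65.3 to 81.8, 83.4, 86.5 and 78.8 CPM. Postn, the periostin gene, had 9.02, 7.29, 7.82 and 7.61 CPM in control and 8.57, 8.44, 7.80 and 8.58 at 1 h, ranges that overlap (adjusted p = 0.627).

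Dpt, which encodes dermatopontin, a small protein that binds decorin and collagen, fell the most. Its control libraries held 58.8, 52.8, 53.6 and 57.5 CPM and its 1 h libraries 17.6, 21.4, 18.6 and 19.2 CPM, 2.92-fold lower (log2 change -1.55 ± 0.0809 SE, adjusted p = 9.05e-11). All 3 TIMP genes fell without overlap of the groups. Timp1 fell 2.15-fold, from 297, 269.6, 287 and 292 to 124.9, 133.3, 140.4 and 138 CPM. Timp2 fell 2.19-fold, from 1528, 1422, 1460 and 1513 to 654, 704, 685 and 685 CPM. Timp3, the inhibitor that binds to the matrix, fell 1.93-fold, from 2016, 1687, 1765 and 1786 to 909, 956, 936 and 984 CPM. The proteases they inhibit moved little: Mmp14, the membrane-anchored collagenase, fell 1.16-fold (adjusted p = 0.00369), and Mmp2 (gelatinase A) had 685, 685, 691 and 693 CPM in control and 673, 686, 694 and 658 at 1 h (adjusted p = 0.412). Sparc fell 1.40-fold, from 3943, 3738, 3865 and 3938 to 2685, 2873, 2807 and 2793 CPM. Bgn, the biglycan gene, fell 1.28-fold, from 1773, 1625, 1670 and 1739 to 1267, 1346, 1376 and 1361 CPM. Lox, whose enzyme crosslinks collagen and elastin, fell 1.54-fold, from 6484, 5110, 5555 and 5513 to 3602, 3987, 3505 and 3779 CPM, while Loxl2, a related enzyme, had 317, 307, 309 and 313 and 335, 328, 334 and 332 CPM (adjusted p = 0.0678).

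**Figure D3:**
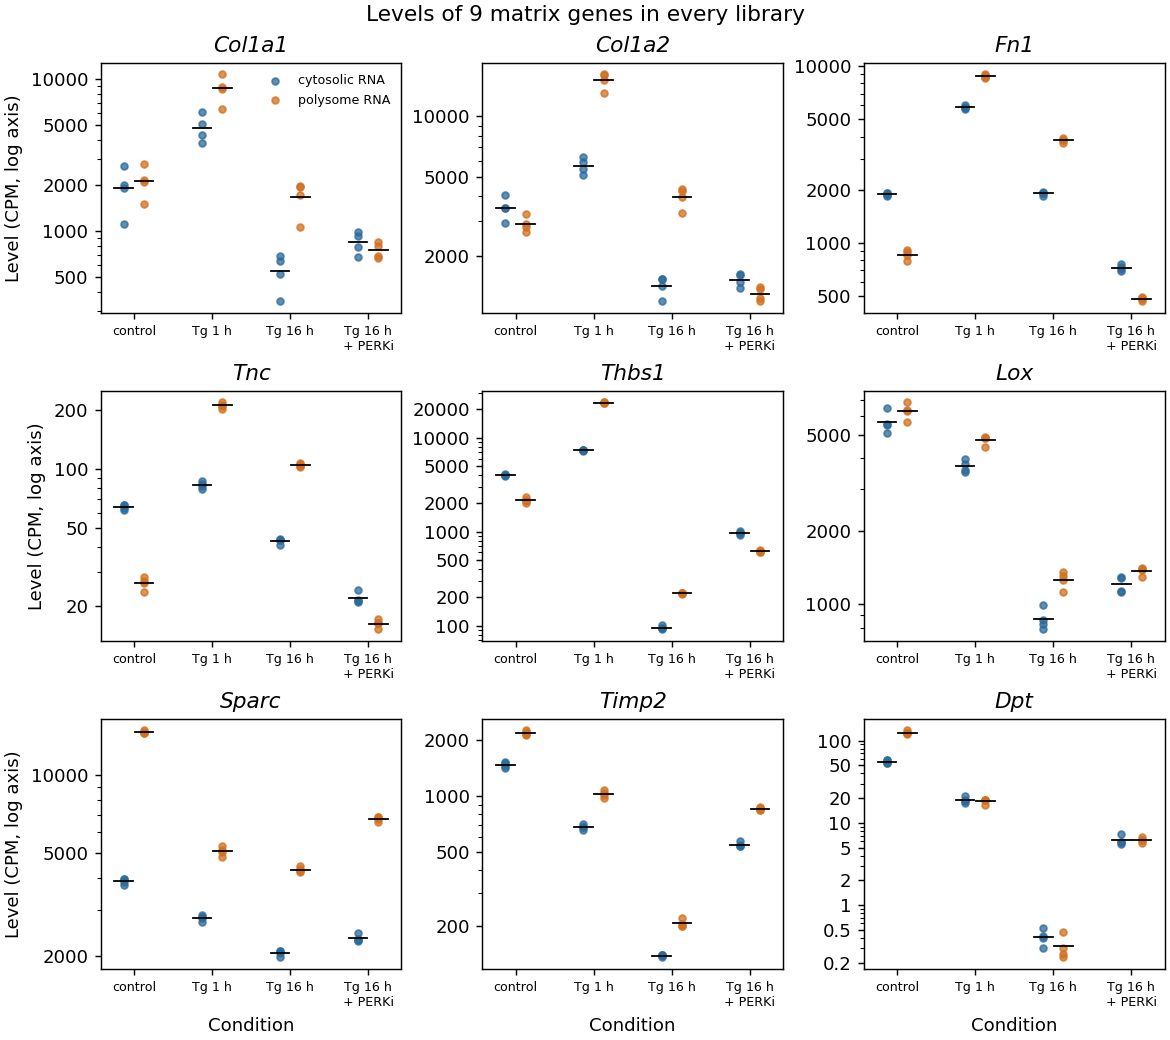
Levels of 9 matrix genes in CPM (y axes, log scale, a range for each gene) in the 4 conditions (x axes), with a point for each of 4 libraries per kind of RNA and a line at the mean. Thbs1 rises at 1 h and is far below control at 16 h, Fn1 is near its control level in cytosolic RNA at 16 h, and Dpt falls at each time.

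In polysome RNA at 1 h, 36 of 50 tested members rose and 13 fell (background 41.1% and 38.5% of 12065 genes), with a median log2 change of 1.77. With offsets corrected for coding length, 27 rose and 15 fell, with a median of 0.60, where 36.9% of all genes in that fit rose and 40.3% fell. The polysome to cytosolic ratio of a gene, here called its polysome ratio, sets this against the cytosolic change. Tested by an interaction term, it rose for 28 of 51 members and fell for 10, where 33.4% of 12561 genes rose and 34.4% fell. The members' median log2 change in ratio was 0.93.

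Tnc rose the most in ratio. The log2 ratio of Tnc was -1.28, -1.41, -1.13 and -1.31 in the control samples and 1.37, 1.39, 1.22 and 1.41 at 1 h, a change of 6.20-fold (log2 change 2.63 ± 0.0830 SE, adjusted p = 1.54e-14). The Thbs1 ratio went from -0.90, -0.95, -0.76 and -0.91 to 1.70, 1.67, 1.64 and 1.68 on the log2 scale, 5.88-fold higher, and Thbs1 in polysomes rose from 2167 ± 130.6 to 23550 ± 218 CPM (SD, n = 4). Relative to the other mRNAs of each library, both thus went from a lower scaled level in polysome than in cytosolic RNA to a higher one. The point where the levels are equal is set by the scaling, so the sign gives no absolute amount in polysomes. The Lamb1 ratio went from -1.04, -1.03, -1.01 and -1.07 to 1.14, 1.30, 1.196 and 1.22, 4.77-fold higher. Col1a2 had log2 ratios of -0.02, -0.53, -0.40 and -0.09 in control and 1.28, 1.67, 1.45 and 1.26 at 1 h, a rise of 3.20-fold (adjusted p = 2.86e-08), whereas Col1a1 had 0.92, -0.31, -0.43 and 0.53 and 0.52, 1.23, 1.09 and 0.58, which overlap and did not pass the test (adjusted p = 0.11). Fn1 rose 3.31-fold in ratio, from -1.02, -1.29, -1.11 and -1.13 to 0.57, 0.62, 0.56 and 0.60, and Postn 3.68-fold, from -1.97, -1.67, -1.43 and -1.78 to 0.31, 0.07, 0.00 and 0.27.

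Members that fell in ratio at 1 h were mostly short. Bgn fell 2.37-fold in ratio, from 1.72, 1.80, 1.87 and 1.72 to 0.56, 0.54, 0.44 and 0.58 on the log2 scale (log2 change -1.25 ± 0.0652 SE, adjusted p = 7.27e-12). Dpt fell 2.34-fold, from 1.06, 1.22, 1.31 and 1.07 to 0.11, -0.19, -0.17 and -0.01. The ratio of Vwa1, a small basement membrane protein gene with counts partly shared with other genes, fell 2.18-fold, from 2.55, 1.65, 1.54 and 2.10 to 0.90, 1.05, 0.85 and 0.47. None of the 3 overlapped between the groups. Sparc fell 2.08-fold and Timp1 2.05-fold, while Timp2 had log2 ratios of 0.54, 0.61, 0.63 and 0.50 in control and 0.64, 0.56, 0.51 and 0.66 at 1 h (adjusted p = 0.783). Dpt fell in both kinds of RNA, and its polysome level went from 124.9 ± 5.67 to 18.4 ± 1.22 CPM.

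The 16 h samples address chronic stress, per the title of the series. Of 50 tested members 43 fell and 2 rose, against 39.4% and 37.9% of all tested genes, with a median log2 change of -2.04 for members and -0.01 for all genes. Falls of at least 2-fold were seen in 39 members, where 17.6% of all tested genes fell that far. Falls were counted in each role: 7 of 9 fibrillar or fibril-associated collagens, 7 of 9 other collagens, 5 of 6 fibre glycoproteins, 8 of 9 basement membrane genes, 4 of 5 matricellular genes, 3 of 3 proteoglycans and partners, 4 of 4 crosslinkers and 5 of 5 proteases and inhibitors fell. Non-matrix fibroblast markers fell as well, 9 of 10 with none rising, and the smooth muscle, chondrocyte, neural and macrophage lists summed lower, as given above; their part in the matrix result was not tested. With offsets corrected for coding length, 42 members fell and 4 rose, where 37% of all genes in that fit fell and 40.9% rose.

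Dpt fell the most. The 16 h libraries held 0.302, 0.398, 0.522 and 0.420 CPM, 146.2-fold below control (log2 change -7.19 ± 0.123 SE, adjusted p = 6.38e-18). Thbs1 stood at 102, 91.1, 93.5 and 93.7 CPM, 45.7-fold below control, although it had risen at 1 h. Fbln2, the fibulin-2 gene, went from 389, 621, 550.0 and 545 to 20.7, 25.1, 28.1 and 25.5 CPM, 23.03-fold lower. For these 3 genes no 16 h library came near a control library. Col6a1 fell 20.4-fold, to 25.4, 25.8, 31.4 and 27.4 CPM, and Col8a1, a chain of a short network collagen, 21.4-fold. The type I chains fell less: Col1a1 stood at 346, 691, 638 and 520.3 CPM (3.85-fold lower) and Col1a2 at 1187, 1543, 1529 and 1425 CPM (2.67-fold lower). Col3a1 held 14.2, 15.7, 15.5 and 14.4 CPM, 2.56-fold lower, and Col5a1 110.3, 174, 163 and 144 CPM, 4.66-fold lower.

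Both sides of matrix turnover fell. Timp2 held 138, 135, 139.1 and 138 CPM, 11.7-fold below control, Timp3 198, 176, 172 and 179 CPM, 10.9-fold below, and Timp1 74.3, 68.8, 70.9 and 71.3 CPM, 4.37-fold below. Mmp2 stood at 145.3, 142.1, 149 and 147 CPM, 5.13-fold lower, and Mmp14 went from 264, 295, 290.3 and 286 to 136.2, 146.1, 150.4 and 149.8 CPM, 2.12-fold lower. Among crosslinkers, Lox fell 7.12-fold, to 988, 827, 787 and 857 CPM, and Loxl2 6.81-fold, to 49.4, 47.4, 51.1 and 51.1 CPM. Sparc, with 2074, 1968, 2087 and 2044 CPM, had fallen 2.06-fold, and Bgn, with 673, 596, 639 and 644 CPM, 2.90-fold. The Vwa1 level went from 4.16, 7.40, 6.12 and 6.02 to 0.272, 0.882, 0.768 and 0.551 CPM, 10.4-fold lower.

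Of the 50 tested members 5 missed the threshold. Lamb1 held 32.4, 31.1, 33.3 and 33.2 CPM at 16 h (adjusted p = 0.478 against control), and Fbn2, Col5a2, Col4a1 and Col4a2 had adjusted p of 0.0753, 0.169, 0.137 and 0.159. Fn1 held 1951, 1854, 1917 and 1922 CPM, with a log2 change of -0.10 ± 0.0381 SE (adjusted p = 0.0199). That small fall has no stable direction, since it was lost with DESeq2 size factors, without the low-count filter or without control replicate 2, control replicate 3 or 16 h replicate 2, and became 0.19 with the correction for coding length. Tnc fell 1.62-fold, to 43.6, 41.1, 43.4 and 44.0 CPM, and Fbn1 2.38-fold, to 33.7, 27.4, 30.1 and 31.6 CPM. Postn was 1 of 2 members that rose, to 13.4, 10.4, 9.71 and 11.4 CPM (1.30-fold higher, adjusted p = 0.00263). The other was Col5a3, a minor type V collagen chain, which went from 0.422, 0.166, 0.191 and 0.182 to 0.332, 0.740, 0.707 and 0.577 CPM, at levels under 1 CPM throughout (2.28-fold higher, adjusted p = 0.00475).

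The polysome ratio at 16 h rose for 32 of 51 members and fell for 8, against 31.1% and 33% of all tested genes, and the members' median log2 change was 1.09. All but 1 of the 9 fibrillar or fibril-associated collagens rose in ratio, and none fell. Col11a1, a fibrillar collagen chain of low abundance, had the largest rise at 8.34-fold (log2 change 3.06 ± 0.517 SE), but its cytosolic libraries at 16 h held only 0.151, 0.199, 0.0922 and 0 CPM. Better measured was Tnc, with log2 ratios of 1.29, 1.31, 1.30 and 1.22 at 16 h, 5.92-fold above control. Fn1 had log2 ratios of 1.02, 0.99, 1.004 and 0.995, 4.41-fold above control, with almost no spread between samples. Col1a2 had 1.86, 1.36, 1.10 and 1.57 (3.34-fold above control) and Col1a1 2.498, 1.32, 0.74 and 1.94 (2.73-fold above control, adjusted p = 0.00296, not called with the correction for coding length). The Col1a1 values overlap between the groups. The lowest changes belonged to Vwa1 (5.17-fold lower), Dpt (2.90-fold lower) and Timp1 (2.09-fold lower). Of these, Vwa1 and Dpt were under 1 CPM in every 16 h library of both kinds of RNA, so their ratios rest on few counts. At 16 h 1 Vwa1 sample stood apart: its log2 ratios were 1.18, -0.98, -0.999 and -0.54. With offsets corrected for coding length, 22 members rose in ratio and 13 fell, where 31.1% of all genes in that fit rose and 30.2% fell.

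In polysome RNA at 16 h, 35 of 50 tested members fell and 12 rose (background 42.9% and 42.3%), with a median log2 change of -1.26. With offsets corrected for coding length, 40 fell and 8 rose, with a median of -2.04. Of all genes in that fit, 41.8% fell and 42.9% rose. Fn1 reached 3828 ± 109.3 CPM in polysomes against 858 ± 50.8 in control, 4.24-fold higher, with an almost equal cytosolic level. Tnc rose 3.78-fold in polysomes, from 26.3 ± 1.88 to 105 ± 2.56 CPM, although it had fallen in cytosolic RNA. Lamb1 rose 4.19-fold and Postn 5.51-fold, the latter from 2.41 ± 0.321 to 13.99 ± 0.573 CPM. Thbs1, with a high ratio, still fell 10.3-fold, from 2167 ± 130.6 to 221 ± 1.95 CPM. Col1a2 and Col3a1 were 1.30-fold and 1.28-fold higher and Fbn1 1.18-fold higher, and the correction for coding length turned these 3 to log2 changes of -0.33, -0.38 and -0.78.

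From 1 h to 16 h, cytosolic RNA fell for 46 of 50 members and rose for 2 (background 37.7% and 37.7%), with a median log2 change of -2.46. Thbs1 fell 83.8-fold, Dpt 50.0-fold and Fbln2 32.8-fold, and the 2 that rose were again Postn (1.25-fold) and Col5a3 (2.10-fold). Polysome RNA fell for 46 of 50 and rose for 2 (background 40% and 38.4%). The ratio rose for 8 of 51 and fell for 11 (background 14.5% and 13.6%), with a median log2 change of 0.05. Among members that passed the test, its largest rises were 1.46-fold (Fbln1), 1.41-fold (Thbs2) and 1.38-fold (Nid2), and its largest falls 2.38-fold (Vwa1), 1.61-fold (Col6a3) and 1.495-fold (Fbln2). The Thbs2 call was lost when any of several single 1 h or 16 h replicates was left out, and the Vwa1 call without 16 h replicate 2, 3 or 4. At 16 h, Vwa1 was under 1 CPM in both kinds of RNA and Thbs2 in cytosolic RNA. With offsets corrected for coding length, 10 members rose in ratio and 6 fell, where 14.7% of all genes in that fit rose and 10.3% fell. These comparisons share libraries with those against control.

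Addition of PERKi during the last 4 h of the 16 h treatment addresses the part of PERK in chronic stress. The polysome ratio fell for 36 of 51 members and rose for 6, against 33.7% and 26.4% of all tested genes, with a median log2 change of -1.08 for members and -0.09 for all genes. By role, 8 of 9 fibrillar or fibril-associated collagens, 5 of 6 fibre glycoproteins, 7 of 9 basement membrane genes and 4 of 5 matricellular genes fell in ratio. Col1a1 had log2 ratios of -0.13, 0.02, -0.31 and -0.23 with PERKi, 3.46-fold below 16 h without it (log2 change -1.79 ± 0.363 SE, adjusted p = 0.000636). Fn1 had -0.54, -0.71, -0.60 and -0.49, 3.005-fold lower, and Thbs1 -0.60, -0.68, -0.65 and -0.59, 3.61-fold lower. All samples with PERKi were below all samples without it for these 3 genes. The largest falls were 7.76-fold for Col11a1, 5.08-fold for Lamb2, the laminin beta-2 chain, and 4.37-fold for Thbs2, the thrombospondin-2 gene. Col11a1 was under 1 CPM in every library with and without PERKi, and Thbs2 in cytosolic RNA without it, so these 2 falls rest on few counts. The Lamb2 ratios were 1.89, 0.75, 0.27 and 1.29 without and -1.21, -1.28, -1.38 and -1.32 with PERKi, and those of Thbs2 1.66, 1.96, 1.72 and 2.29 and -0.07, -0.41, -0.09 and -0.25.

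The 6 members that rose in ratio were under 2000 nt. Timp1 had log2 ratios of -0.17, -0.03, 0.05 and -0.01 at 16 h and 0.97, 0.91, 0.92 and 0.98 with PERKi, 1.98-fold higher (log2 change 0.99 ± 0.0661 SE, adjusted p = 4.15e-10). Sparc had 1.02, 1.13, 1.08 and 1.05 and 1.57, 1.49, 1.57 and 1.49, 1.38-fold higher. Neither overlapped between the groups. The Vwa1 ratio rose 2.27-fold (adjusted p = 0.0129), from 16 h levels under 1 CPM, and the call was lost without 16 h replicate 2 or without 16 h replicate 3. Timp2 had 0.56, 0.56, 0.66 and 0.53 and 0.69, 0.56, 0.67 and 0.66 and missed the threshold (adjusted p = 0.347).

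**Figure D4:**
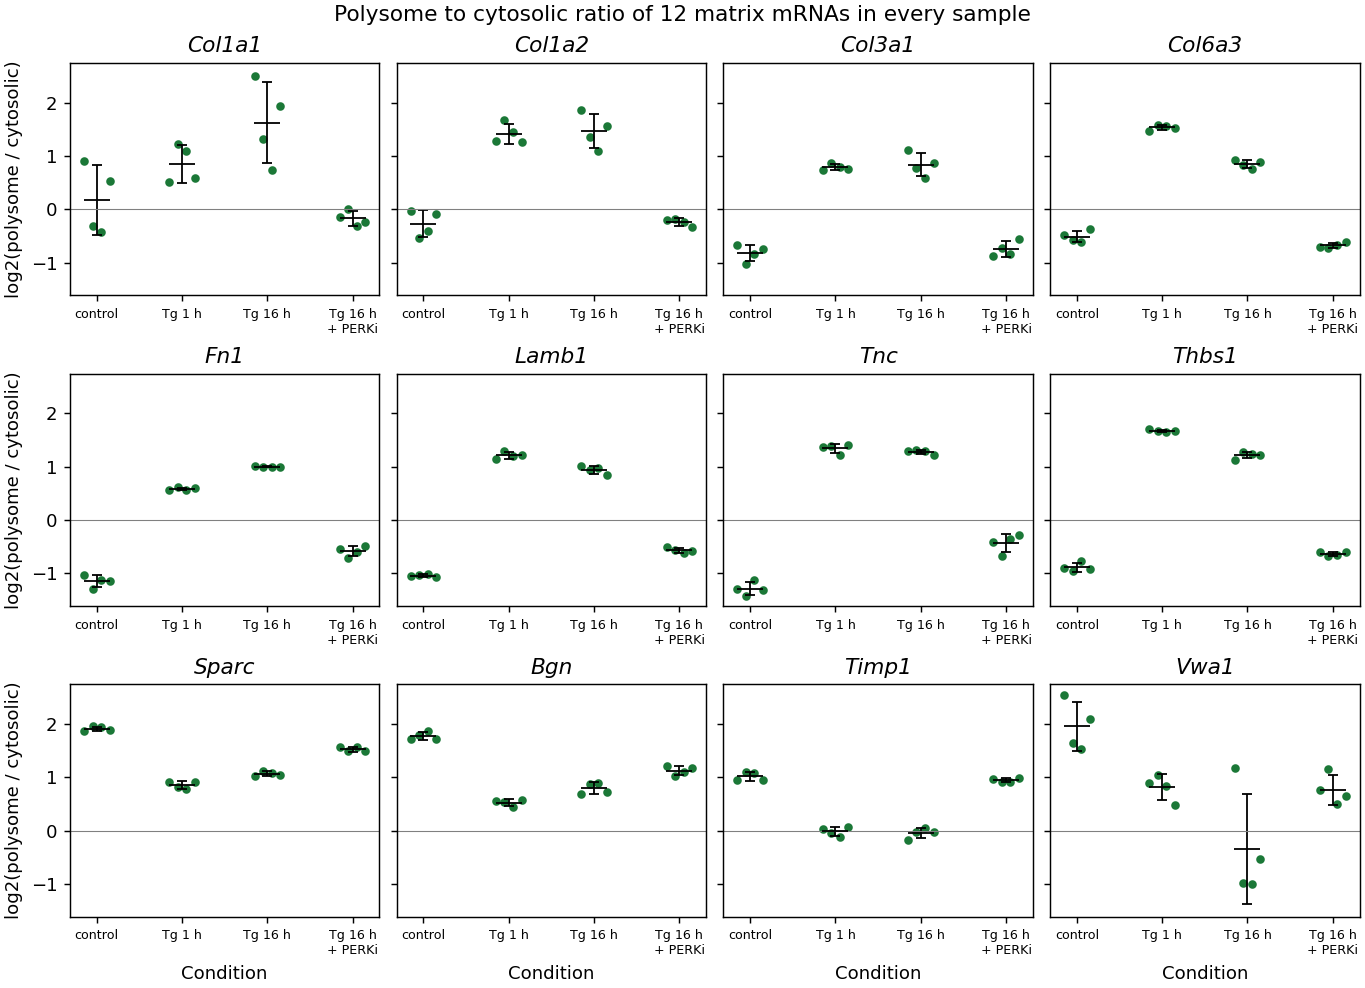
log2 of the polysome to cytosolic ratio of 12 matrix mRNAs (y axes) in the 4 conditions (x axes), with a point for each sample, a bar at the mean and whiskers for the SD. The long mRNAs of the upper 2 rows are higher at 1 h and 16 h than in control and lower again with PERKi (Col1a1 overlaps control at 1 h and at 16 h), and Sparc, Bgn and Timp1 in the lower row have the opposite course.

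In cytosolic RNA with PERKi, 26 of 50 members rose and 10 fell (background 42.2% and 32.5%), with a median log2 change of 0.34 for members and 0.10 for all genes. All 4 crosslinkers and all 5 tested proteases and inhibitors rose, while 4 of 6 fibre glycoproteins fell. Dpt rose 15.4-fold, to 5.60, 7.32, 5.90 and 5.79 CPM, from a level under 1 CPM. Thbs1 rose 10.51-fold, to 927, 1009, 958 and 958 CPM (log2 change 3.39 ± 0.0400 SE, adjusted p = 2.48e-19). Vwa1 rose 6.48-fold, to 3.85, 2.88, 4.54 and 4.26 CPM. The Dpt and Thbs1 levels stayed below every control library. Timp2 rose 4.13-fold, to 540.5, 571, 544 and 536 CPM, and Timp1 1.95-fold, to 133.8 ± 4.27 CPM (SD, n = 4). Lox rose 1.45-fold, Loxl2 1.76-fold, Mmp2 1.23-fold, Mmp14 1.40-fold and Sparc 1.19-fold.

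Lamb1, Fn1 and Fbn1 fell the most with PERKi. Lamb1 held 11.6, 11.6, 11.1 and 11.4 CPM with PERKi, 2.74-fold below 16 h without it (log2 change -1.45 ± 0.0443 SE, adjusted p = 2.3e-14). Fn1 held 709, 763, 733 and 693 CPM, 2.54-fold lower, and Fbn1 14.1, 14.4, 13.97 and 13.5 CPM, 2.12-fold lower. The groups did not overlap for these genes, and all 3 were below their control level. Tnc, with 21.6, 24.3, 21.2 and 21.0 CPM, fell 1.88-fold. Of the type I collagen chains, Col1a1 held 934, 679, 989 and 786 CPM (1.60-fold higher, adjusted p = 0.0265, lost without 16 h replicate 1 or 4, without PERKi replicate 1 or 3, or in a fit of both conditions alone) and Col1a2 1605, 1383, 1625 and 1493 CPM (adjusted p = 0.196).

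In polysome RNA with PERKi, 12 of 50 members rose and 30 fell (background 42.1% and 40.7%). Fn1 fell 7.77-fold, from 3828 ± 109.3 to 483 ± 11.8 CPM, and Lamb1 7.93-fold. Col1a2 fell 2.99-fold and Col3a1 4.01-fold. Thbs1 rose 2.87-fold, to 622 ± 12.2 CPM. Timp2 rose 4.25-fold and Timp1 3.79-fold. With offsets corrected for coding length, 22 members rose and 16 fell, near the 41.4% of all genes in that fit that rose and the 38.7% that fell. Col5a1, Col6a1, Mmp2 and Mmp14 then turned from lower to higher (log2 changes of 0.04, 0.07, 0.22 and 0.18).

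The polysome ratio of the members followed coding length, as that of all genes did. At 1 h, none of 13 tested members with under 2000 nt of coding sequence rose in ratio and 9 fell (median log2 change -0.72, against -0.20 for all genes of that length). From 2000 to 5000 nt, 14 of 18 rose and 1 fell (1.22 against 0.41), and over 5000 nt 14 of 20 rose and none fell (1.43 against 1.40). At 16 h the medians of the 3 classes were -0.54, 1.35 and 1.37 for members and -0.22, 0.46 and 1.22 for all genes. With PERKi they were 0.20, -1.51 and -1.35 for members and 0.10, -0.58 and -1.11 for all genes, and all 18 members of the middle class fell in ratio. The members over 5000 nt thus had medians close to those of all genes of that length, and those from 2000 to 5000 nt had medians further from 0. The share of all genes of each class that passed the test was not computed. The counts of members by class therefore have no background of like length beside them. Across the 51 members, Spearman's rho of ratio change with coding length was 0.627 at 1 h, 0.551 at 16 h and -0.522 with PERKi, a description across genes that share their libraries, and over 12407 genes it was 0.313, 0.393 and -0.441. The part of coding length in the ratio changes was not tested beyond this correction.

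**Figure D5:**
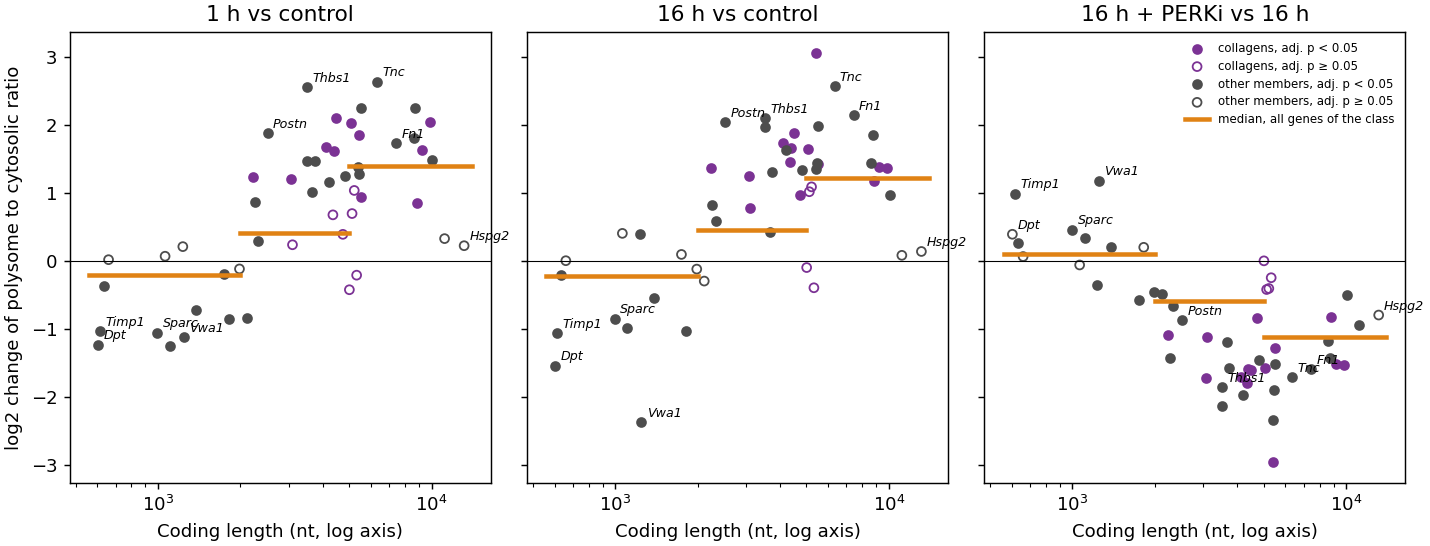
log2 change of the polysome to cytosolic ratio (y axis) against coding length in nt (x axis, log scale) for the 51 tested matrix genes in 3 comparisons, purple for collagens and grey for other members, filled for adjusted p under 0.05, with orange lines at the median of all genes under 2000 nt, from 2000 to 5000 nt and over 5000 nt. Members under 2000 nt lie mostly below 0 at 1 h and 16 h and longer ones mostly above, with the reverse under PERKi.

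After the offsets were corrected for coding length, the members' median log2 change in ratio was 0.25 at 1 h (23 higher, 13 lower), 0.29 at 16 h and -0.41 with PERKi (5 higher, 29 lower). Of all genes in that fit, 31.8% rose and 33.8% fell at 1 h, and 26.1% rose and 28.1% fell with PERKi. Single genes kept large changes. Thbs1 was at 1.94 at 1 h, 1.48 at 16 h and -1.22 with PERKi on the log2 scale, Postn at 1.57, 1.68 and -0.42, and Tnc at 1.45, 1.51 and -0.80. Fn1, one of the longest, fell to 0.40 at 1 h, from 1.73 uncorrected. Sparc and Timp1 stayed lower at 1 h, at -0.62 and -0.77, while Timp3 turned from -0.20 to 0.19 at 16 h and from 0.26 to -0.10 with PERKi. Without that correction, 11 of 18 collagens, all of them over 2000 nt, rose in ratio at 1 h and none fell, while 17 of the 20 other members of 2000 nt or more rose and 1 fell. At 16 h 14 of 18 collagens rose, against 17 of 20, and none fell in either set. With PERKi 14 of 18 collagens fell, against 19 of 20, and none rose. The median log2 changes in ratio were 1.12, 1.36 and -1.39 for collagens and 1.42, 1.39 and -1.44 for the other long members, and the difference between the sets was not tested.

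Genes that serve the matrix, from lists kept apart from the 55, were set beside the members. In cytosolic RNA at 16 h, where 39.4% of all tested genes fell and 37.9% rose, 24 of 29 other matrix protein genes fell and 2 rose, and 15 of 21 genes of procollagen processing and folding fell and 3 rose. Among matrix receptors 19 of 23 fell and 2 rose, among other proteases and inhibitors 19 of 26 fell and 6 rose, and in the TGF-beta system 16 of 21 fell and 3 rose. Among the genes that fell were Plau, the urokinase gene (59.0-fold lower), Ctgf, a matricellular target of TGF-beta and YAP (88.3-fold lower), and Cyr61, its relative (25.6-fold lower). At 1 h Cyr61 had risen 1.87-fold in cytosolic RNA. In ratio at 1 h, 15 of the 21 procollagen processing genes fell and 4 rose (background 34.4% and 33.4%). No correction for coding length and no background of like length was computed for this list. In cytosolic RNA at 1 h, 7 of these 21 rose and 7 fell, near the background of 28.1% in each direction. Those that fell included Ppib, the ER cyclophilin of the prolyl 3-hydroxylase complex (1.84-fold lower), and its partner Crtap (1.87-fold lower).

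Promoter sequences were available for 37 of the 55 members in the RefSeq table for GRCm38.p6 (a window of equal length around each start). The GC box GGGCGG was present on either strand in 26 of 37 (70.3%), against 35.9% of 27025 promoters, and CCAAT in 18 of 37 (48.6% against 37.9%). The AP-1 motif TGANTCA was in 2 of 37, Col6a1 and Mmp3 (5.41% against 7.93%), the TEAD motif GGAATG in 4 (10.8% against 14.6%), TATAAA in 5, Col3a1, Dpt, Mmp3, Thbs2 and Tnc (13.5% against 14.2%), and the ATF4 composite motif ATTNCATCA in none (0.969% of all promoters). A match describes letters only. The 27025 promoters were not limited to genes with enough counts to be tested here, and a background of tested genes was not computed. The 150 bases before the start are shown for the member that fell the most (Dpt), for Timp2 and for Col1a2, 5′ to 3′ on the gene's strand, with any searched motif in capitals.
Dpt, plus strand, chr1:164796513-164796662: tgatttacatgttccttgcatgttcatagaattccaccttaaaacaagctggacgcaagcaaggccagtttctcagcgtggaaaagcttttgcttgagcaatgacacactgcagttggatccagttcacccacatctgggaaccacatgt
Timp2, minus strand, chr11:118355412-118355561: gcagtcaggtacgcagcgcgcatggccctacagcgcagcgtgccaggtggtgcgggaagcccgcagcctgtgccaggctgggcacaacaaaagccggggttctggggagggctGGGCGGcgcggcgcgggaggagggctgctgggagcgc
Col1a2, plus strand, chr6:4505468-4505617: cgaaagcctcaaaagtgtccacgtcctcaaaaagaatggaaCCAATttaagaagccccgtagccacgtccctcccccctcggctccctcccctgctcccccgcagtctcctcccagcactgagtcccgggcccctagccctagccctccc
In these shorter windows Dpt held none of the motifs, its TATAAA lying in the rest of the longer window, Timp2 1 GC box and Col1a2 1 CCAAT box. In cytosolic RNA at 16 h the 3 genes were 146.2-fold, 11.7-fold and 2.67-fold lower than in control.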

How the data were processed

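RNA-seq of cytosolic and polysome RNA was analysed in 16 samples (32 libraries). The deposited values are raw counts per gene symbol, whole numbers that the authors had not divided by size factors. The submitters' processing notes name HISAT (no version), the build mm10 and DESeq2 1.9.23. A counter, strand setting or annotation is not given in the sources used here.

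In R 4.3.3, edgeR 4.0.16 (with limma 3.58.1) was run on the counts: filterByExpr (minimum count 10, minimum total 15), TMM factors and the quasi-likelihood test over the 16 libraries of each kind of RNA, with 4 conditions as groups. The polysome ratio was tested over all 32 libraries by the interaction term of condition with RNA kind, with the sample as a block, since the series design states that the RNA of each sample was divided into both kinds. Calls required an adjusted p (Benjamini-Hochberg, over all genes tested) under 0.05. SE denotes the standard error of a log2 change. Levels in CPM used TMM factors over all 32 libraries, so ratios of levels differ somewhat from fitted folds. Single-sample log2 ratios had 0.5 counts added. For the coding-length correction, offsets were adjusted by a lowess curve (span 0.3) on coding length. In data simulated for 1 h against control, 95% of genes changed 2-fold were recovered in cytosolic RNA (12198 genes) and 91% in the ratio (12369 genes). There, 100 genes were changed 2-fold and 100 4-fold, equally up and down and without the lowest counts. In the real cytosolic data at 1 h, 28.1% of genes rose and 28.1% fell. Recovery under such wide change, or for members with few counts, was therefore not measured.

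All 55 genes may be named; values per library are given for a fixed set of 25 of them and for the 3 highest and 3 lowest called changes of a comparison, and genes of the other lists only as the 2 with the smallest p, of which 1 is not reported here. The members and lists were chosen with earlier results of these data known. Whether the 4 replicates of a group were separate cultures is not stated, and p-values may therefore reflect technical spread only. Libraries of a group always differed by more than sampling noise (chi-square over degrees of freedom at least 2.29), and each was counted as its own sample. Alternatives were DESeq2 1.42.0 size factors and Wald test, no low-count filter, a replicate block, both conditions alone, the length correction and leaving out each replicate.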

Additional observations from a re-analysis of the deposited data

Results flagged for a closer look

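Of 668 groups of 4 values (levels and log2 ratios of the 55 genes, and their summed level), 28 held a value far from the other 3, by a gap above the critical share of the group's range in Dixon's test. Chance alone gives about 1 in 20 such groups. Among members with well-measured levels, Lamc1, the laminin gamma-1 chain, had 5 of them. In control cytosolic RNA it held 171.7 CPM in replicate 1 and 178.5 to 178.9 in the others (gap 0.944 of the range). In polysome RNA at 1 h Lamc1 held 607.8 CPM in replicate 2 and 569.4 to 574.3 in the others (0.872), in cytosolic RNA at 16 h 151.8 CPM in replicate 2 and 158.2 to 159.5 in the others (0.831), and in polysome RNA with PERKi 69.99 CPM in replicate 4 and 72.66 to 73.1 in the others (0.859). Its control log2 ratio was -0.23 in replicate 2 and -0.11 to -0.09 in the others (0.894). All these Lamc1 gaps are small beside its level.

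In control polysome RNA, Postn stood at 2.28, 2.28, 2.89 and 2.20 CPM, replicate 3 being the high one (0.888), and Nid1 at 46.03, 44.5, 53.95 and 45.68 CPM, again with replicate 3 high (0.838). In polysome RNA at 1 h, Dpt had 19.04, 18.8, 16.5 and 19.1 CPM, with replicate 3 low (0.901), and Timp1 128.4, 129.6, 129.5 and 145.6 CPM, with replicate 4 high (0.93). Thbs2 there had 45.68, 40.97, 40.2 and 40.36 CPM, with replicate 1 high (0.859), and Col11a1 5.476, 4.664, 4.679 and 4.711 CPM, also with replicate 1 high (0.942). The control log2 ratio of Col8a1 was -0.76 in replicate 1 and -0.50 to -0.45 in the others (0.857).

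The remaining groups hold levels under 1 CPM. With PERKi, cytosolic Col11a1 had 0.805 CPM in replicate 4 and 0.367 to 0.378 in the others (0.975), its log2 ratio was -0.15 in replicate 2 and -1.37 to -1.24 in the others (0.888), and cytosolic Lama4 had 0.26 CPM in replicate 4 and at most 0.151 in the others (0.843). In control cytosolic RNA, Col5a3 had 0.422 CPM in replicate 1 and at most 0.191 in the others (0.9), Col15a1 0.0779 CPM in replicate 4 (0.944) and Eln 0.0829 CPM in replicate 2 (0.926). A single library was above 0, with a gap of 1, for Col15a1 in control polysome RNA and in both kinds of RNA with PERKi, for Lum in cytosolic RNA of control and 1 h and in polysome RNA at 1 h, and for Mmp3 in control cytosolic RNA and in polysome RNA at 1 h. Mmp3 also had 0.182 CPM in replicate 2 of polysome RNA at 16 h (0.968) and a log2 ratio of 2.53 in replicate 2 at 1 h (0.849).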

How the results depend on the processing

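Among the recomputed values for single genes, 3506 kept direction and side of the threshold, 54 no longer passed and 15 changed sign. All 15 changed sign with offsets corrected for coding length: cytosolic RNA at 16 h, Fn1 0.19; polysome RNA at 1 h, Col4a1 -0.23 and Loxl2 -0.056; at 16 h, Col1a2 -0.33, Col3a1 -0.38 and Fbn1 -0.78; with PERKi, Col5a1 0.0404, Col6a1 0.0687, Lox -0.0099, Mmp2 0.22, Mmp14 0.18 and Timp3 -0.01; ratio at 1 h, Col5a1 -0.11; at 16 h, Timp3 0.19; with PERKi, Timp3 -0.10. That correction also moved 5 counts of members by over 1.5 times: cytosolic RNA higher at 16 h, 4; ratio lower at 16 h, 13; ratio lower from 1 h to 16 h, 6; polysome RNA with PERKi, 22 higher and 16 lower. Leaving out single replicates moved no count by that much, the widest range being 28 to 36 members lower in polysome RNA with PERKi. Deviations from group means of same-numbered samples correlated from -0.477 to 0.649 in cytosolic and -0.391 to 0.488 in polysome RNA. They correlated best with their own number in 5 and 8 of 24 cases. The cytosolic and polysome libraries of one sample, a known pair, correlated only from -0.316 to 0.16 (median 0.0542). Since known pairs do not stand out in it, this check cannot tell whether replicate numbers pair samples. With the replicate block, 43 members fell in cytosolic RNA at 16 h, 36 lower in ratio with PERKi became 34, and 1 of 175 gene calls was lost (Mmp2 in polysome RNA at 1 h). Members with few counts, such as Col4a1 and Col11a1, are limited by depth.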
